A study of Mus musculus with 9 samples.

Results

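Lipoproteins leave the liver as particles of lipid wrapped in apolipoproteins, and the 10 genes described here encode the main proteins of that pathway in liver: Apob, Mttp, Apoa1, Apoa2, Apoa4, Apoa5, Apoc1, Apoc3, Apoe and Apoh. They were chosen by function, as hepatic apolipoproteins with the lipid transfer protein of very low density lipoprotein assembly. They are 10 of the 54532 genes in the deposited table. All 10 passed the filter on low values (a mean of at least 0.5 FPKM, a level per kilobase of exon scaled to library size), as did 11852 genes in all. Poly(A) RNA of mouse liver was sequenced in 9 libraries, 3 per group. The groups were Cth knockout mice given betaine at 1% in the drinking water, Cth knockout mice on drinking water, and WT mice on drinking water. The enzyme lost, cystathionine gamma-lyase, releases cysteine from cystathionine, and betaine is a methyl donor for the remethylation of homocysteine. The study asked what loss of this enzyme does in chronic liver disease. The labels give no strain, sex, age or knockout allele, and no WT group on betaine is among the samples. Whether replicates came from separate animals is not stated there, and each p-value below therefore reflects spread among libraries that may be technical.

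Apolipoprotein B is the scaffold of very low density lipoprotein (VLDL): a single copy stays with each particle, and the microsomal triglyceride transfer protein, the product of Mttp, lipidates it as it enters the endoplasmic reticulum. Apolipoproteins A-I and A-II are the main proteins of high density lipoprotein (HDL). Apolipoproteins C-I, C-III, A-IV, A-V and E are exchangeable and move between particles, where C-III slows and A-V promotes the lipolysis of triglyceride, and E is the ligand by which remnants are taken up by the liver. Apolipoprotein H (beta-2-glycoprotein I) circulates mostly free and binds anionic phospholipid.

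The libraries held 15184973 to 17473958 reads in genes, as recovered from the FPKM. Cth itself was at 0.470 ± 0.269 FPKM with betaine, 0.544 ± 0.248 FPKM in the knockout and 254 ± 33.3 FPKM in WT livers (SD, n = 3 each), as labelled. The liver label also held, with Alb, the hepatocyte gene for albumin, between 18958 and 51130.0 FPKM. WT replicate 3 stood apart in sex-linked genes: Xist was at 26.6 FPKM there against at most 0.0124 FPKM in the other 8 libraries, and the Y-linked Ddx3y, Eif2s3y, Kdm5d and Uty had 0 reads there against 1512 to 2393 reads in the others. Calls for the 10 genes are therefore given with and without that library. Enterocytes also make Apob, Apoa1 and Apoa4, and the enterocyte genes Sis, Alpi, Cdx2 and Lct were at 0 in all 9 libraries. The summed level of 7 enterocyte genes was 23.0 to 46.2 FPKM with betaine, 40.9 to 51.9 FPKM in the knockout and 22.3 to 37.8 FPKM in WT livers. Of all genes tested, 25.6% passed limma's test in knockout against WT, and at least that share had an unadjusted p under 0.05. With betaine against the knockout 0.0422% passed and 22.5% had an unadjusted p under 0.05. With betaine against WT the shares were 11.7% and 30.5%. These shares belong beside the marker counts that follow. Macrophages also make Apoe. The summed level of 10 Kupffer cell and macrophage genes was 128 to 288 FPKM with betaine, 159 to 203 FPKM in the knockout and 212 to 259 FPKM in WT livers, and 0 of the 10 passed limma's test in any comparison (2 of 10 had an unadjusted p under 0.05 in knockout against WT and 0 in the others). The summed level of 7 hepatocyte genes, most of it Alb, was 32299 to 42729 FPKM with betaine, 37459 to 47415 FPKM in the knockout and 46472 to 65754 FPKM in WT livers, with 1 of the 7 higher in knockout against WT and 0 called otherwise. The summed level of 7 genes of sinusoidal endothelium was 20.7 to 33.0 FPKM with betaine, 27.2 to 35.1 FPKM in the knockout and 33.7 to 59.1 FPKM in WT livers. Of the 7, 1 was lower in knockout against WT and 2 were lower with betaine against WT. In the latter comparison 6 had an unadjusted p under 0.05, beside 30.5% of all genes tested. Of 6 pancreatic acinar genes, Prss1, Cpa1, Pnlip and Amy2a5 were at 0 in all 9 libraries. The summed level of the 6 was 8.57 to 13.2 FPKM with betaine, 12.01 to 14.9 FPKM in the knockout and 5.99 to 7.30 FPKM in WT livers. Only 2 of the 6 passed the filter on low values and were tested. Of these 2, 1, Cela1, was called higher in the knockout and with betaine, each against WT. The part of these cells in the results was not tested. In bulk tissue, fewer cells of a type and less RNA per cell cannot be told apart.

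The genes span a wide range of levels. By mean FPKM over the 9 libraries Apoa2 ranked 4th, Apoe 6th and Apoa1 12th among all genes, Apoc1 ranked 20th, Apoc3 32nd and Apoh 54th, and Apob, Apoa5, Mttp and Apoa4 ranked 134th, 138th, 1008th and 1737th. Together they held 7.82% ± 1.73 of all FPKM with betaine, 8.98% ± 0.835 in the knockout and 7.57% ± 0.684 in WT livers (SD, n = 3 each), ranges that overlapped. Counts were high for all: the smallest value, Apoa4 in 1 library, rested on 432 reads and the largest, Apoe, on 478119.

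Upstream sequence was taken from RefSeq (GRCm38.p6), where 8 of the 10 genes had an entry; Apoc1 and Apoc3 are named only. Those of Apob, Apoa1 and Apoa2 are shown 5′ to 3′ because these genes differed between knockout and WT in opposite directions. Each ends at the base before the first annotated start of the gene, and bases past that start are left out. They cover chr12:7977427-7977647 for Apob, chr9:46228380-46228579 for Apoa1 and chr1:171224804-171225053 for Apoa2, all on the plus strand. Capitals mark the match to TATAAA.
Apob: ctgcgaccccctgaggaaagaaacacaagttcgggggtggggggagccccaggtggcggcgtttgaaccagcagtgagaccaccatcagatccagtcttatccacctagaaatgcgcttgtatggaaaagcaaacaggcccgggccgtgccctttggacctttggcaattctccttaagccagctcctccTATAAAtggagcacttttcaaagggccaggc
Apoa1: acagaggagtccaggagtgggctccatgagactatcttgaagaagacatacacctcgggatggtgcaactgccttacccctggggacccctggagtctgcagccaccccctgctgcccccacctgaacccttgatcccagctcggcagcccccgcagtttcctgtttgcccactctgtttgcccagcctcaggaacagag
Apoa2: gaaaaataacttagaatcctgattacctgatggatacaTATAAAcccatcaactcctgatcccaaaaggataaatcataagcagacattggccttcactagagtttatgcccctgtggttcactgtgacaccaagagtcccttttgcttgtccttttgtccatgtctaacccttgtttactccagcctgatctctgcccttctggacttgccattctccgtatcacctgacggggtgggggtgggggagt
The 250 bases before the RefSeq start were searched on both strands for TATAAA, which 12.4% of the 32851 promoters held, and for CAAAGTNCA, a core of the site of the liver factor HNF4, which 1.19% held. In the 8 genes no match to one overlapped a match to the other. The letters TATAAA began 31 bases before the first start of Apob, 212 before that of Apoa2 and 56 before that of Apoa5. Apoa4 held CAAAGTTCA, which began 182 bases before its RefSeq start and 34 before its first start. The windows of Apoa1, Mttp, Apoe and Apoh held neither, which says only that these letters are not in them. Those of Mttp (chr3:138143419-138143668) and Apoh (chr11:108395047-108395296) lie inside the gene, past its first annotated start, and not upstream of it.

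**Figure D1:**
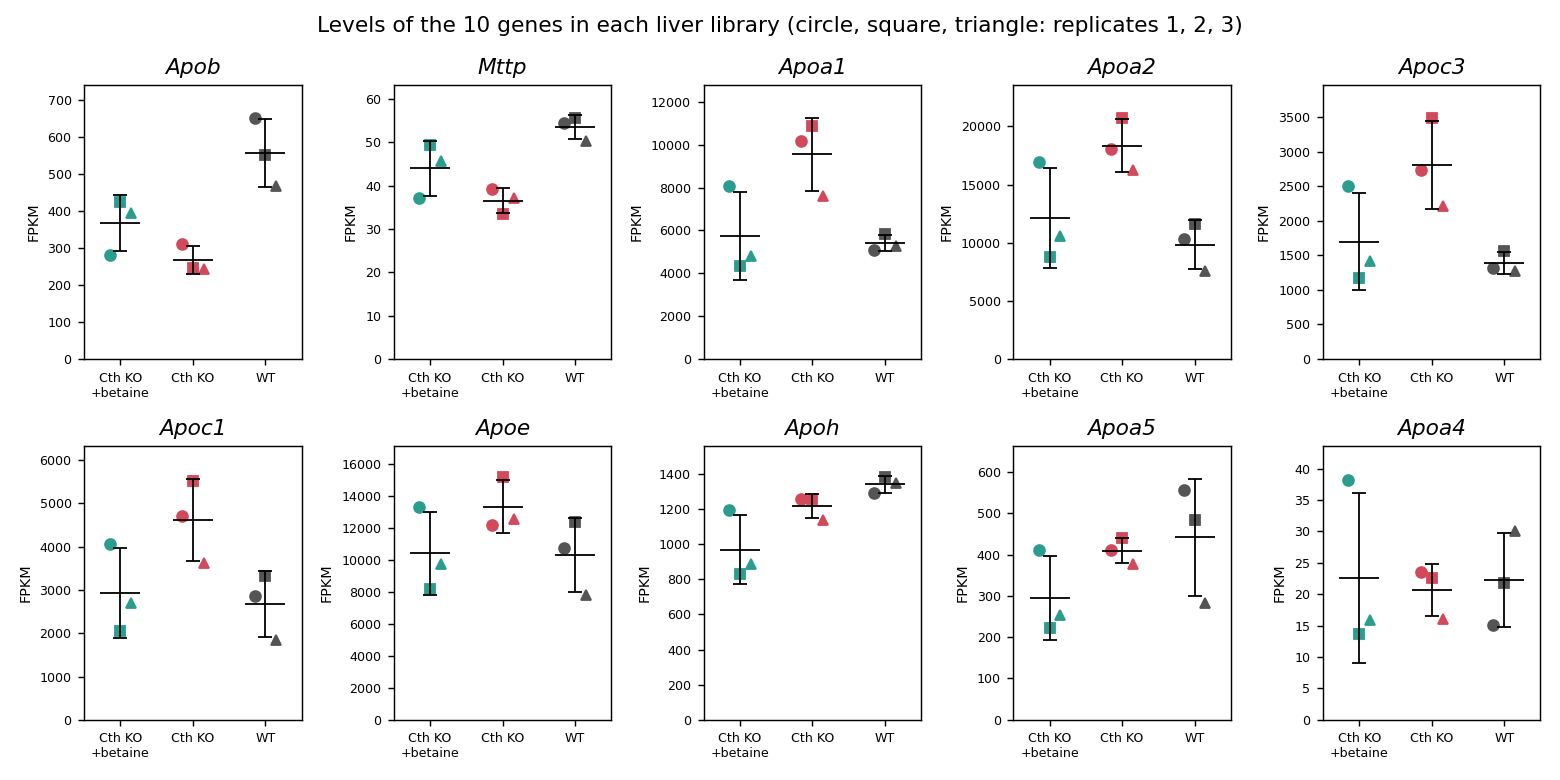
Level (FPKM, linear axis from 0) of each of the 10 genes in the Cth knockout plus betaine, Cth knockout and WT libraries. Circles, squares and triangles are replicates 1, 2 and 3, and bars give the mean and SD of 3 libraries. All 3 WT libraries lie above all knockout and betaine libraries for Apob and Mttp, and the knockout libraries lie above WT for Apoa1, Apoa2, Apoc3 and Apoc1.

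The first comparison asks what loss of Cth does to these genes. Apob and Mttp, the scaffold of VLDL and the protein that lipidates it, fell in Cth knockout livers, and Apoa1, Apoa2 and Apoc3 rose. Apob fell to 0.480 of its WT level and Mttp to 0.685, while Apoa1 stood at 1.75-fold, Apoa2 at 1.89-fold and Apoc3 at 2.0-fold. Thus 3 of the 10 were called higher and 2 lower by limma at a Benjamini-Hochberg adjusted p under 0.05, beside 25.6% of all genes tested, 12.8% higher and 12.7% lower. Knockout libraries lay wholly above WT for 4 of the 10, beside 23.6% of all genes tested, and wholly below for 3, beside 23.2%. The median log2 fold change was 0.17 over the 10 genes and 0.015 over all genes tested. Without WT replicate 3, with 21.7% of all genes called, the calls of Apob and Mttp remained, and those of Apoa1 (adjusted p = 0.0721), Apoa2 (0.0820) and Apoc3 (0.0619) did not.

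Apob (ENSMUSG00000020609, chr12:7977648-8016835, plus strand, mm10) measured 310.1, 247 and 243 FPKM in the 3 knockout libraries, against 652, 551 and 468 FPKM in the 3 WT libraries. The highest knockout library lay well below the lowest WT library. The log2 fold change was -1.06 ± 0.20 (SE of the fit, n = 3 each; adjusted p = 0.00891). It was called in all 9 fits that left out 1 library and under all 12 other settings tried, with log2 fold changes of -1.48 to -0.72.

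Mttp (ENSMUSG00000028158, chr3:138089854-138144968, minus strand) measured 39.1, 33.5 and 37.1 FPKM in knockout livers, against 54.6, 55.7 and 50.3 FPKM in WT livers. The groups did not overlap, and the spread within each was small beside the gap between them. Its log2 fold change was -0.54 ± 0.14 (n = 3 each; adjusted p = 0.0210). The gene lies on the chromosome of Cth, 19.7 Mb away, so that sequence near the targeted locus and the genotype cannot be told apart for it. The call was lost without knockout replicate 2 (adjusted p = 0.0888) or 3 (0.0580) and without WT replicate 1 (0.0622) or 2 (0.0518), with fold changes that stayed between -0.59 and -0.48.

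Of the HDL proteins, Apoa1 (ENSMUSG00000032083, chr9:46228580-46230466, plus strand) measured 10167, 10849 and 7616 FPKM in knockout livers, against 5106, 5814 and 5267 FPKM in WT livers. All 3 knockout libraries lay above all 3 WT libraries, which were close to each other. The log2 fold change was 0.81 ± 0.25 (adjusted p = 0.0413), but -0.092 after quantile normalization. This call was the least firm of the 5: it held in 2 of 9 fits without 1 library. It was lost without knockout replicate 1 (0.112), 2 (0.140) or 3 (0.0505), without WT replicate 1 (0.108), 2 (0.0647) or 3 (0.0721), and without betaine replicate 3 (0.0561).

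Apoa2 (ENSMUSG00000005681, chr1:171225054-171226379, plus strand), the other main HDL protein, measured 18027, 20768 and 16258.5 FPKM in knockout livers, against 10283, 11649.9 and 7543 FPKM in WT livers. Here too the groups stayed apart, with the lowest value in WT replicate 3. Its log2 fold change was 0.92 ± 0.27 (n = 3 each; adjusted p = 0.0352). The call was kept in 3 of 9 fits and lost without any 1 knockout library (0.0826, 0.122 and 0.0658 for replicates 1, 2 and 3), WT replicate 1 (0.0737) or 3 (0.0820), or betaine replicate 3 (0.0515).

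Of the C apolipoproteins, Apoc3 (ENSMUSG00000032081, chr9:46232933-46235636, minus strand) measured 2731, 3478 and 2217 FPKM in knockout livers, against 1311, 1565 and 1277 FPKM in WT livers. The groups did not overlap. Its log2 fold change of 1.00 ± 0.28 was the largest increase among the 10 genes (n = 3 each; adjusted p = 0.0299). It was called in 5 of 9 fits, and not without knockout replicate 1 (0.0723) or 2 (0.113) or WT replicate 1 (0.0802) or 3 (0.0619). Apoc1 (ENSMUSG00000040564, chr7:19689481-19692660, minus strand), an activator of lecithin-cholesterol acyltransferase and inhibitor of lipoprotein uptake, measured 4719, 5519.5 and 3629.6 FPKM in knockout livers, against 2870.04, 3329 and 1846 FPKM in WT livers. These values did not overlap either, yet the log2 fold change of 0.81 ± 0.30 missed the threshold (adjusted p = 0.0775), passing it without betaine replicate 1 (0.0490).

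The remaining 4 genes were not called. Apoe (ENSMUSG00000002985, chr7:19696109-19699188, minus strand) measured 12178, 15207 and 12559 FPKM in knockout livers, against 10739, 12369 and 7778 FPKM in WT livers. WT replicate 2 lay within the knockout range, and the log2 fold change was 0.39 ± 0.24 (adjusted p = 0.247), -0.030 after rescaling to TPM and -0.48 after quantile normalization, where it was called lower (adjusted p = 0.0198). Apoh (ENSMUSG00000000049, chr11:108343354-108414396, plus strand) measured 1259, 1256 and 1140.1 FPKM in knockout livers, against 1291, 1386 and 1346.5 FPKM in WT livers. The groups did not overlap, and the log2 fold change was -0.14 ± 0.16 (adjusted p = 0.549). It was called lower after rescaling to TPM (-0.56, adjusted p = 0.00967) and with the trend of fold change with exon length removed (-0.51, 0.0242).

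Apoa5 (ENSMUSG00000032079, chr9:46268633-46271919, plus strand) measured 410.3, 439.6 and 378 FPKM in knockout livers, against 558, 485 and 283 FPKM in WT livers. WT replicate 3 held its lowest value and WT replicate 1 its highest, so that the knockout libraries lay inside the WT range. Its log2 fold change was -0.055 ± 0.29 (adjusted p = 0.902). Apoa4 (ENSMUSG00000032080, chr9:46240696-46243459, plus strand) measured 23.5, 22.5 and 16.0 FPKM in knockout livers, against 15.1, 21.8 and 30.1 FPKM in WT livers. These ranges overlapped almost wholly, with a log2 fold change of -0.076 ± 0.39 (adjusted p = 0.900), whose SE was the widest of the 10.

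**Figure D2:**
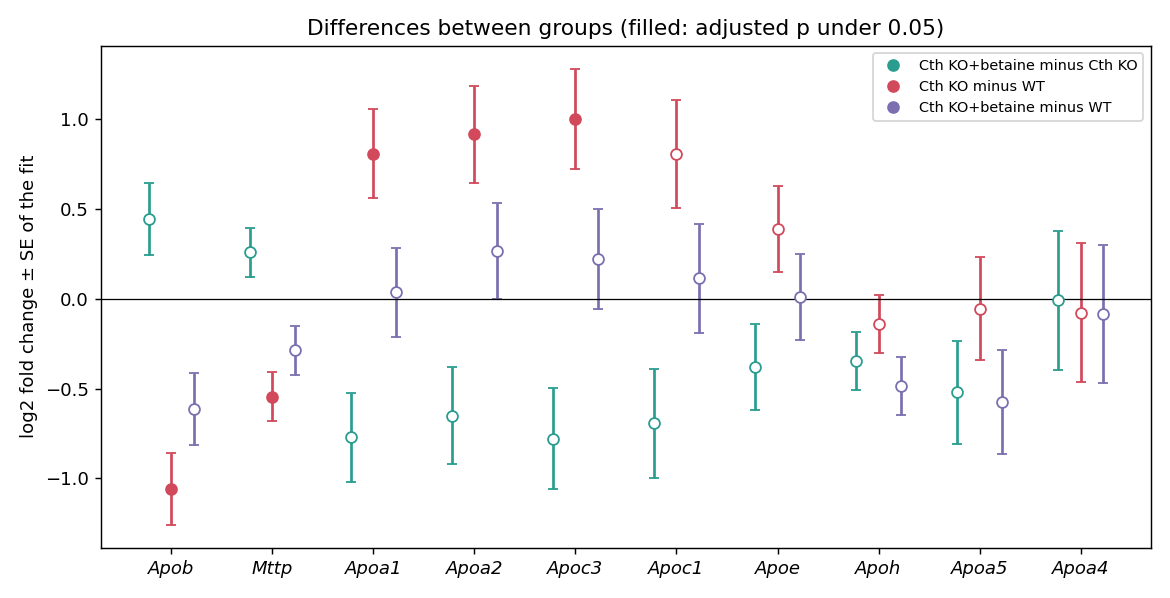
Log2 fold change (vertical axis, with the SE of the limma fit) of the 10 genes for Cth knockout plus betaine minus knockout, knockout minus WT, and knockout plus betaine minus WT. Filled points passed an adjusted p of 0.05. The 5 filled points all belong to knockout minus WT, with Apob at -1.06 lowest and Apoc3 at 1.00 highest.

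Of the genes that share a locus, some were called and others were not. Apoa1, Apoc3, Apoa4 and Apoa5 lie within 43.3 kb of chromosome 9; Apoa1 and Apoc3 rose there, and Apoa4 and Apoa5 stood at -0.076 and -0.055. The 3 other tested genes within 100 kb were not called (unadjusted p under 0.05 for 3): Sik3 stood at -0.41 ± 0.15, Zpr1 at 0.59 ± 0.22 and Bud13 at 0.56 ± 0.21. Over all genes tested 25.6% were called, and at least that share had an unadjusted p under 0.05. Apoe and Apoc1 lie within 9.71 kb of chromosome 7, with 9 other tested genes within 100 kb. Of these 9, 3 were called higher, beside 12.8% of all genes tested. Apoc4, a minor VLDL apolipoprotein, rose by 1.28 ± 0.29 (adjusted p = 0.0143). Tomm40, a pore subunit of mitochondrial import, rose by 0.75 ± 0.17 (0.0136), and Clasrp by 0.65 ± 0.20 (0.0414). Without knockout replicate 2 the adjusted p was 0.0612 for Apoc4 and 0.0613 for Tomm40. Clasrp was lost without knockout replicate 2 (0.145) or 3 (0.115), betaine replicate 3 (0.0583) or WT replicate 1 (0.0874) or 2 (0.104), and after rescaling to TPM (0.44, 0.194). Of the 3 on chromosome 9, Sik3 passed with TPM (-0.83, 0.0161) and with own read totals (-0.52, 0.0470).

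Fold changes in this comparison followed exon length across the whole table, with a Spearman correlation across genes of -0.461 over 11849 genes, which are not independent replicates. The median log2 fold change was 0.35 for genes of up to 2677 bases and -0.25 for genes of over 5244 bases, the short and the long of 3 equal bins. The 8 genes other than Apob and Mttp are in the short bin, and Apob (13934 bases) and Mttp (6206 bases) are in the long one. With the trend removed in each library, Apob stayed lower (-0.72, adjusted p = 0.0264). Mttp was at -0.37 (0.0522), Apoa1 at 0.37 (0.204), Apoa2 at 0.41 (0.156) and Apoc3 at 0.54 (0.111). Apoh, not called before, passed at -0.51 (0.0242), so that 2 of the 10 were called, both lower, beside 18.5% of all genes. What the length trend comes from was not tested.

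**Figure D3:**
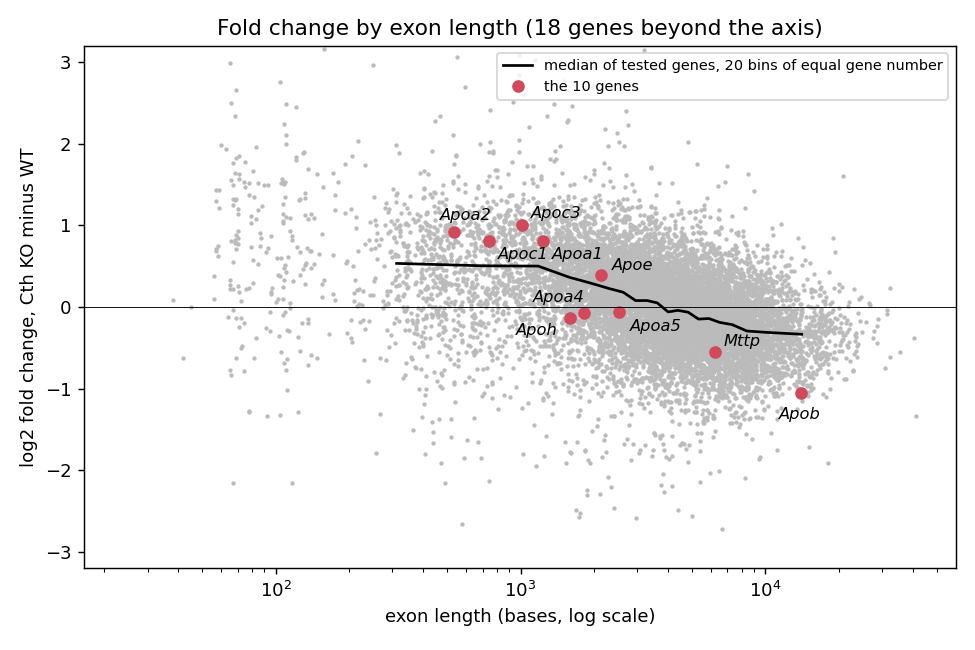
Log2 fold change of Cth knockout minus WT (vertical axis) against exon length (bases, log axis) for the tested genes, with the 10 genes named. The line joins the medians of 20 bins of equal gene number, and 18 genes lie beyond the vertical axis. Apob lies below the line at -1.06, and Apoa1, Apoa2, Apoc1 and Apoc3 lie above it at 0.81 to 1.00.

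The scale of a library also sets these values. The deposited FPKM were relative to a factor close to the median of gene ratios, not to each library's own total. Rescaled to TPM, so that each library sums to the same value, the median of all genes moved to -0.36 for knockout minus WT. On that scale 13.8% of the 4262 called genes (36% of those tested) were higher, against 50.1% of the 3029 with the deposited values. Against that median of -0.36, Apob stood at -1.48, Mttp at -0.97, Apoa1 at 0.39, Apoa2 at 0.50 and Apoc3 at 0.58, and of these Apob and Mttp were called. Scaled by recovered read totals instead, 37.5% of 3121 called genes were higher, and the same 5 of the 10 genes were called.

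**Figure D4:**
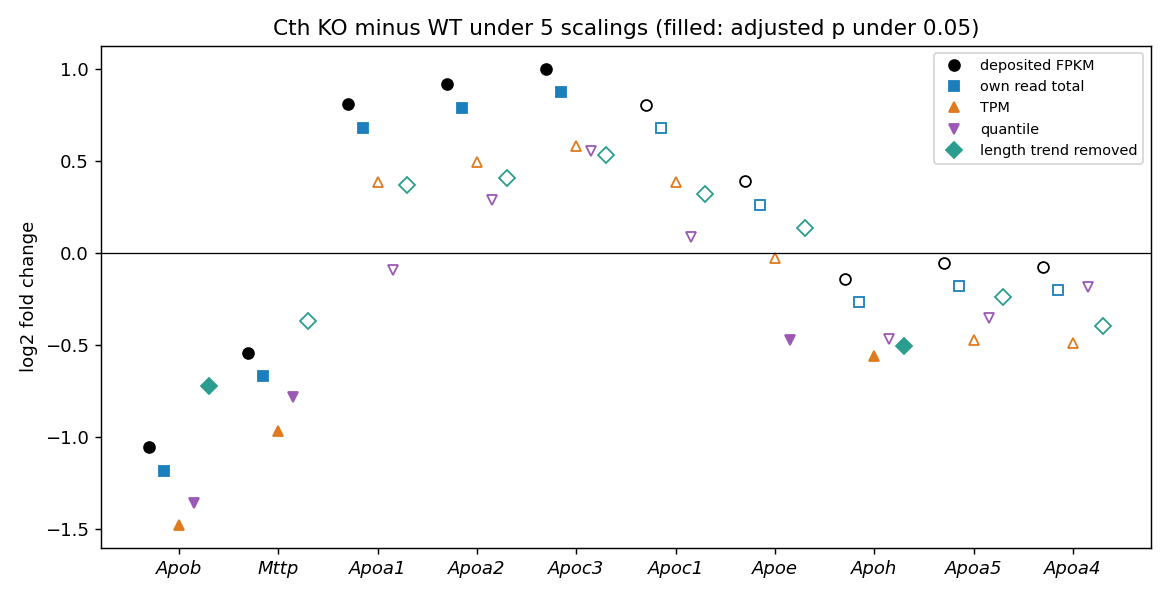
Log2 fold change of Cth knockout minus WT (vertical axis) for the 10 genes with the deposited FPKM, with each library's own read total, with TPM, with quantile normalization and with the length trend removed. Filled symbols passed an adjusted p of 0.05. Apob is filled and below 0 throughout, between -1.48 and -0.72; Apoa1 is at 0.81 with the deposited values and at -0.092 after quantile normalization, and Apoe at 0.39 and -0.48.

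Ratios of 2 genes within a library do not depend on its scale, although a trend with length can move them. Per 100 FPKM of Apoa1, Apob had 3.47, 9.80 and 8.20 FPKM with betaine, 3.05, 2.28 and 3.19 FPKM in the knockout, and 12.8, 9.48 and 8.88 FPKM in WT livers. All knockout libraries were below all WT libraries, and betaine replicate 1 lay just above the knockout while replicates 2 and 3 lay in or near the WT range. Per 100 FPKM of Apob, Mttp had 12.1 ± 0.916 with betaine, 13.8 ± 1.35 in the knockout and 9.74 ± 1.24 in WT livers (SD, n = 3 each). Apoc3 per 100 FPKM of Apoa1 was at 29.2 ± 1.88 with betaine, 29.3 ± 2.61 in the knockout and 25.6 ± 1.34 in WT livers, with overlapping knockout and WT ranges. No p is given for these ratios, since they join genes already compared.

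**Figure D5:**
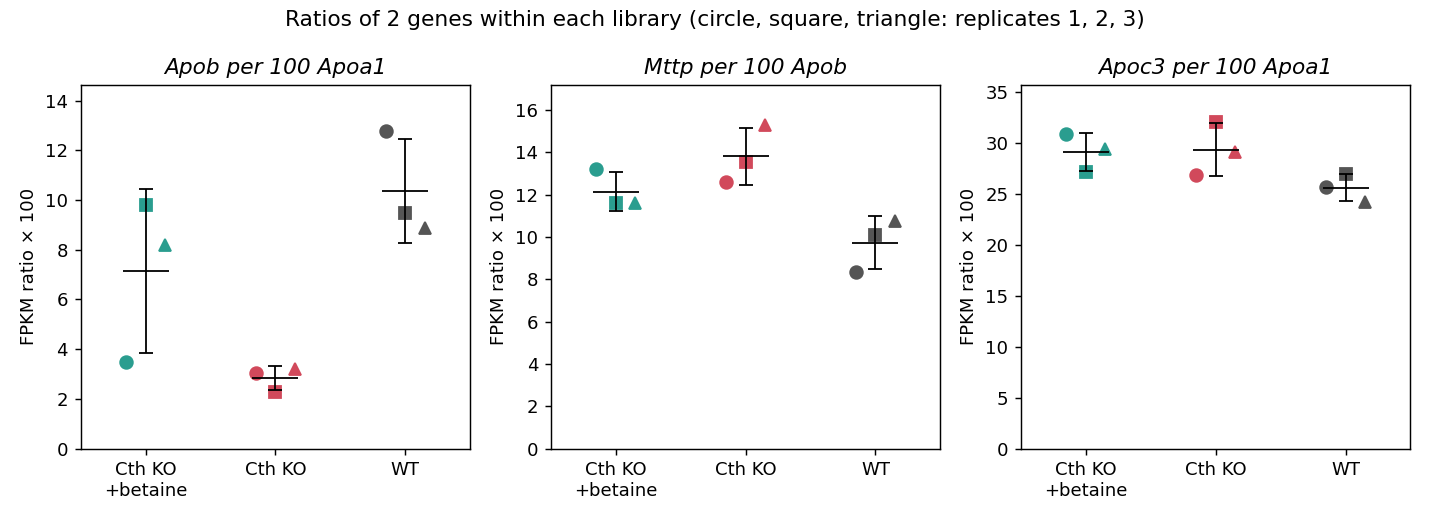
Ratios of Apob to Apoa1, Mttp to Apob and Apoc3 to Apoa1 (FPKM per 100 FPKM, linear axes from 0) in each Cth knockout plus betaine, Cth knockout and WT library. Symbols mark replicates 1, 2 and 3, and bars the mean and SD. Apob per 100 Apoa1 is 2.28 to 3.19 in knockout and 8.88 to 12.8 in WT livers, with betaine replicate 1 at 3.47 and the other betaine libraries at 8.20 and 9.80.

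The second comparison asks what betaine does in the knockout. None of the 10 genes passed the test between betaine-supplemented and unsupplemented knockout livers by limma (0 of 10; lowest adjusted p = 0.132), beside 0.0422% of all genes tested, which were 5. An unadjusted p under 0.05 was found for 4 of the 10, beside 22.5% of all genes, and all 10 had overlapping groups, beside 30.3% of all genes that did not overlap. The median log2 fold change was -0.45 over the 10 genes and -0.00156 over all genes. The knockout libraries enter both this comparison and the last, so a chance high or low value in them moves both fold changes, in opposite directions.

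Betaine replicate 1 lay among the knockout libraries for 9 of the 10 genes, and replicates 2 and 3 lay outside their range. Apob measured 281, 425 and 395 FPKM with betaine, against 310.1, 247 and 243 FPKM without. Replicates 2 and 3 were above all knockout libraries and replicate 1 within them, and the log2 fold change was 0.45 ± 0.20 (adjusted p = 0.226). Mttp measured 37.0, 49.4 and 45.8 FPKM with betaine, against 39.1, 33.5 and 37.1 FPKM without, in the same pattern (0.26 ± 0.14, adjusted p = 0.288). After rescaling to TPM, which moved the median of all genes to 0.33, Apob at 0.81 (adjusted p = 0.0397) and Mttp at 0.62 (0.0450) passed, as did 1754 genes (14.8%), 95.8% of them higher, against 40.0% of the 5 with the deposited values.

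The genes called higher in the knockout showed the opposite arrangement of libraries. Apoa1 measured 8091, 4340.2 and 4809 FPKM with betaine, against 10167, 10849 and 7616 FPKM without (-0.77 ± 0.25, adjusted p = 0.132), and stood at 0.025 after quantile normalization. Apoa2 measured 16980.5, 8740.3 and 10611 FPKM with betaine, against 18027, 20768 and 16258.5 FPKM without (-0.65 ± 0.27, adjusted p = 0.198). Apoc3 measured 2499, 1179 and 1415 FPKM with betaine, against 2731, 3478 and 2217 FPKM without (-0.78 ± 0.28, adjusted p = 0.153). In each, replicates 2 and 3 lay below every knockout library and replicate 1 among them. Without betaine replicate 1 in the fit, 878 genes were called, 7.41% of those tested, among them Apoa1 (-1.05, adjusted p = 0.0287), Apoa2 (-0.92, 0.0470) and Apoc3 (-1.10, 0.0332), all lower. Labels give no reason to leave that library out, and why it differs was not tested.

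The other 5 genes had the same library in the knockout range or above it. Apoc1 measured 4068, 2044 and 2691 FPKM with betaine, against 4719, 5519.5 and 3629.6 FPKM without (-0.69 ± 0.30, adjusted p = 0.216). Apoe measured 13275, 8170.3 and 9762 FPKM with betaine, against 12178, 15207 and 12559 FPKM without (-0.38 ± 0.24, adjusted p = 0.372). Replicates 2 and 3 were below all knockout libraries for both. Apoh measured 1193, 828 and 888 FPKM with betaine, against 1259, 1256 and 1140.1 FPKM without (-0.35 ± 0.16, adjusted p = 0.243). Apoa5 measured 412, 223 and 253 FPKM with betaine, against 410.3, 439.6 and 378 FPKM without (-0.52 ± 0.29, adjusted p = 0.307). For Apoh and Apoa5 the arrangement was the same. Apoa4 measured 38.2, 13.6 and 15.9 FPKM with betaine, against 23.5, 22.5 and 16.0 FPKM without; replicate 1 was the highest of all 9 libraries and the others lay below the knockout, which left a log2 fold change of -0.0077 ± 0.39 (adjusted p = 0.994).

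The third comparison sets betaine-supplemented knockout livers against WT livers, which differ in both genotype and treatment. None of the 10 was called (0 of 10 by limma, lowest adjusted p = 0.0769), beside 11.7% of all genes tested, and 2 had an unadjusted p under 0.05, beside 30.5%. Apob, Mttp and Apoh were lower in all 3 betaine libraries than in any WT library, 3 of 10 beside 16.2% of all genes. Apob averaged 367 ± 76.1 FPKM with betaine and 557 ± 92.4 FPKM in WT livers (SD, n = 3 each), a log2 fold change of -0.61 ± 0.20 (adjusted p = 0.0769). Mttp averaged 44.1 ± 6.34 FPKM with betaine and 53.5 ± 2.84 FPKM in WT livers (-0.29 ± 0.14, adjusted p = 0.194). Apoh averaged 969.7 ± 196 FPKM with betaine and 1341 ± 47.8 FPKM in WT livers (-0.49 ± 0.16, adjusted p = 0.0815). Apoh passed without betaine replicate 1 (-0.64, adjusted p = 0.0347) and with the length trend removed (-0.69, 0.0136).

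The remaining 7 genes overlapped between these groups. Apoa1 stood at 0.037 ± 0.25 (log2), Apoe at 0.012 ± 0.24, Apoc1 at 0.11 ± 0.30, Apoc3 at 0.22 ± 0.28, Apoa2 at 0.27 ± 0.27 and Apoa4 at -0.084 ± 0.39, with adjusted p of 0.536 or above. Under TPM and quantile normalization Apoa1 was at -0.017 and -0.067 and Apoe at -0.042 and -0.43, the last called lower (adjusted p = 0.0462). Apoa5 averaged 296 ± 102 FPKM with betaine and 442 ± 142 FPKM in WT livers (-0.57 ± 0.29, adjusted p = 0.210), and passed without WT replicate 3 (-0.87, adjusted p = 0.0499).

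Genes that act with apolipoprotein B on the way out of the cell were read next. The shares of all tested genes to set beside the counts of this and the following lists were 25.6% for knockout against WT, 0.0422% for betaine against the knockout, where 5 of 11852 genes were called, and 11.7% for betaine against WT. An unadjusted p under 0.05 was found for 22.5% of all genes with betaine against the knockout and for 30.5% with betaine against WT. For knockout against WT at least the 25.6% called had one. Of 21 measured partners of VLDL assembly and secretion, 3 rose and 4 fell in knockout against WT livers. With betaine against the knockout 0 were called (4 with an unadjusted p under 0.05), and 3 fell in betaine-supplemented knockout against WT livers. Mia3 (TANGO1), which packages bulky cargo at endoplasmic reticulum exit sites, measured 19.1 ± 1.91 FPKM with betaine, 22.4 ± 1.49 FPKM in the knockout and 39.0 ± 3.34 FPKM in WT livers. It fell by 0.79 (log2) in the knockout (adjusted p = 0.00627) and fell by 1.01 with betaine against WT (0.00414). Its partner Mia2 fell by 0.75 in the knockout (adjusted p = 0.00580) and fell by 0.49 with betaine against WT (0.0274). The call with betaine against WT was lost without betaine replicate 1 (0.0695) or 3 (0.0901) or WT replicate 1 (0.0879). It was also lost with the length trend removed (-0.27, 0.0958), with TPM (0.0598) and with own read totals (0.0563). The same held without a filter on low values (0.0615), with a block for replicate number (0.0703) and in the fit of only those groups (0.0914). With the length trend removed Mia2 was at -0.44 in knockout against WT (adjusted p = 0.0168). Sec23a, a coat subunit of the vesicles that leave those sites, was at 10.6 ± 0.687 FPKM in the knockout and 18.9 ± 0.951 FPKM in WT livers, and fell by 0.81 (adjusted p = 0.00987). The carboxylesterase Ces1d, a triglyceride hydrolase, fell by 0.63 in the knockout (adjusted p = 0.0215), lost without knockout replicate 2 (0.0899) or 3 (0.0588). The related Ces1c fell by 0.78 with betaine against WT (adjusted p = 0.0238), lost without betaine replicate 3 (0.0849). That call was also lost without a filter on low values (0.0550), with a block for replicate number (0.0517) and in the fit of only those groups (0.0828). These carboxylesterases are close paralogs, so their reads may be split. The 3 that rose in the knockout, named after their values were seen, were Arfrp1, a small GTPase of the Golgi (0.50 ± 0.14, adjusted p = 0.0310), Cideb, a lipid droplet protein of VLDL lipidation (0.51 ± 0.15, 0.0396), and Aadac, a lipase of the endoplasmic reticulum (0.47 ± 0.15, 0.0446). None of the 3 was called without any 1 knockout library or without WT replicate 1 or 3, with adjusted p of 0.0503 to 0.136 in those fits, and Cideb and Aadac were also lost without betaine replicate 3 (0.0572 and 0.0643) and Aadac without WT replicate 2 (0.1003). With TPM they stood at 0.16, 0.095 and 0.049, and with the length trend removed Cideb stood at 0.12 and Aadac at 0.079, none of these called. With betaine against the knockout, Sec24c stood at 0.59 ± 0.16 (adjusted p = 0.0989) and Arfrp1 at -0.42 ± 0.14 (0.142).

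Of 10 other measured apolipoproteins and particle proteins, 3 rose and 2 fell in the knockout. With betaine 0 were called against the knockout (4 with an unadjusted p under 0.05), and 1 rose against WT. Apom, the HDL carrier of sphingosine-1-phosphate, measured 168 ± 28.6 FPKM with betaine, 104 ± 39.7 FPKM in the knockout and 235 ± 22.4 FPKM in WT livers. Its knockout value fell by 1.24 ± 0.25 (log2, adjusted p = 0.0104), opposite to Apoa1 and Apoa2, and its betaine value against the knockout was 0.75 ± 0.25 (adjusted p = 0.138). Apof, known in human as an inhibitor of cholesteryl ester transfer, measured 881 ± 63.2 FPKM in the knockout and 538 ± 26.5 FPKM in WT livers and rose by 0.71 (adjusted p = 0.0130). This call was lost without knockout replicate 2 (0.0600) and with the length trend removed (0.27, 0.132). It was also lost with TPM (0.29, 0.0829) and after quantile normalization (0.33, 0.128). Apol9b, one of a pair of closely similar genes whose reads may be shared, rose by 0.96 in the knockout (adjusted p = 0.00713) and rose by 1.14 with betaine against WT (0.00733). Apoc2, the activator of lipoprotein lipase, was low, at 1.39 ± 1.14 FPKM with betaine and 4.07 ± 1.90 FPKM in the knockout (-1.33 ± 0.43, adjusted p = 0.137). Pon3, a lactonase carried on HDL, measured 17.4 ± 3.92 FPKM with betaine, 13.9 ± 1.08 FPKM in the knockout and 23.3 ± 3.54 FPKM in WT livers. It stood at -0.43 ± 0.18 with betaine against WT (adjusted p = 0.137). In knockout against WT, a value added after it was seen, it fell by 0.72 (adjusted p = 0.0187), lost without knockout replicate 2 (0.0735) or 3 (0.0567).

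Of 9 measured proteins that act on the particles in plasma, 0 rose and 1 fell in the knockout (2 with an unadjusted p under 0.05), beside 25.6% of all genes. By limma 0 of 9 were called with betaine against the knockout (2 with an unadjusted p under 0.05). With betaine against WT 1 fell (4 with an unadjusted p under 0.05), beside 11.7% of all genes. Pltp, the phospholipid transfer protein, measured 5.99 ± 1.22 FPKM in the knockout and 12.1 ± 4.28 FPKM in WT livers and fell by 0.92 (adjusted p = 0.0186), lost without knockout replicate 2 (0.0678) or 3 (0.0644). Pltp stood at -0.74 ± 0.23 with betaine against WT (adjusted p = 0.0631). Angptl4, which inhibits lipoprotein lipase, measured 23.1 ± 17.2 FPKM with betaine, 107 ± 8.41 FPKM in the knockout and 78.1 ± 23.7 FPKM in WT livers. It fell by 2.03 with betaine against WT (adjusted p = 0.0465) and stood at -2.53 ± 0.55 against the knockout (0.0877). The first call held without betaine replicate 1 or 2 and was lost without any other single library, with adjusted p of up to 0.122. That call was also lost without a filter on low values (0.0981), with a block for replicate number (0.0508) and in the fit of only those groups (0.116). The second value passed without betaine replicate 1 (-3.10, 0.0243) and with TPM (-2.19, 0.0322).

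Of 14 measured genes of uptake and efflux, 0 rose and 4 fell in the knockout. With betaine 0 were called against the knockout (5 with an unadjusted p under 0.05), and 1 fell against WT. Lsr, the lipolysis-stimulated lipoprotein receptor, measured 17.9 ± 3.55 FPKM in the knockout and 37.7 ± 9.80 FPKM in WT livers and fell by 1.04 (adjusted p = 0.0138). Sdc1, a heparan sulfate proteoglycan that binds remnants, measured 82.1 ± 16.0 FPKM with betaine, 48.5 ± 7.04 FPKM in the knockout and 83.3 ± 18.7 FPKM in WT livers. It fell by 0.76 in the knockout (adjusted p = 0.0239) and stood at 0.75 ± 0.20 with betaine against the knockout (0.101). Lrp1, a remnant receptor that binds apolipoprotein E, fell by 0.56 in the knockout (adjusted p = 0.0332), and was at -0.21 with the length trend removed (0.278). Mylip, which marks the LDL receptor for degradation, fell by 1.11 in the knockout (adjusted p = 0.0407) and fell by 1.26 with betaine against WT (0.0444). These calls of Mylip held in 3 and 2 of 9 fits without 1 library, and neither held without WT replicate 3 (-0.74, 0.0790, and -0.89, 0.0642). Over all fits without 1 library the adjusted p for knockout against WT was at most 0.0610 for Lsr, 0.0956 for Sdc1, 0.106 for Lrp1 and 0.119 for Mylip. Each was highest without knockout replicate 2 except for Lrp1, where it was replicate 1. Of these 9 fits, Lsr was called in 8, Sdc1 in 7 and Lrp1 in 4. Under 12 other settings Lsr was called in 12, Sdc1 in 10, Lrp1 in 9 and Mylip in 8.

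Of 17 measured transcription factors that act on apolipoprotein genes, 2 rose and 6 fell in the knockout. With betaine 0 were called against the knockout (3 with an unadjusted p under 0.05), and 1 rose and 5 fell against WT. Ppara, the fatty acid receptor, measured 9.50 ± 4.07 FPKM with betaine, 5.02 ± 1.159 FPKM in the knockout and 25.99 ± 5.31 FPKM in WT livers. It fell by 2.26 ± 0.29 in the knockout (adjusted p = 0.00546), more than any of the 10 genes, and by 1.46 with betaine against WT (0.0177). Hnf4a, whose factor binds many apolipoprotein promoters, measured 88.0 ± 7.61 FPKM with betaine, 109 ± 2.72 FPKM in the knockout and 174 ± 33.2 FPKM in WT livers. It fell by 0.66 in the knockout (adjusted p = 0.0161) and fell by 0.97 with betaine against WT (0.00861). Rora, a nuclear receptor of the orphan family, fell by 0.94 in the knockout (adjusted p = 0.00826) and fell by 0.81 with betaine against WT (0.0220). With the length trend removed these values were -0.61 (0.0218) and -0.56 (0.0405), and with WT replicate 3 also left out -0.50 (0.0420) and -0.45 (0.0665). The call of Rora with betaine against WT was lost with TPM (0.0577), without a filter on low values (0.0571) and in the fit of only those groups (0.0684). A block for replicate number also ended it (0.0517). Rxra, the partner of Ppara on DNA, fell by 0.69 in the knockout (adjusted p = 0.0159). Srebf1, a driver of fatty acid synthesis, measured 42.9 ± 7.73 FPKM with betaine, 16.3 ± 1.25 FPKM in the knockout and 17.7 ± 4.92 FPKM in WT livers. It rose by 1.28 with betaine against WT (adjusted p = 0.0103) and stood at 1.35 ± 0.21 against the knockout (0.0608). The latter value passed in 2 of 9 fits without 1 library, those without betaine replicate 1 (0.0320) or WT replicate 3 (0.0229). It also passed under 4 of 12 other settings, among them TPM (1.73, 0.0281) and own read totals (1.54, 0.0468). Foxa2, a liver pioneer factor, measured 15.0 ± 3.99 FPKM with betaine, 27.0 ± 6.59 FPKM in the knockout and 11.7 ± 3.83 FPKM in WT livers. It stood at -0.83 ± 0.28 with betaine against the knockout (adjusted p = 0.142). In knockout against WT, a value added after it was seen, it rose by 1.19 ± 0.28 (adjusted p = 0.0173), lost without knockout replicate 1 (0.0511) or 2 (0.0707) or WT replicate 1 (0.0514). The other factor that rose there was Nr1h3, the liver X receptor alpha, also named after its values were seen, at 0.44 ± 0.14 (adjusted p = 0.0465), called in the fits without betaine replicate 2 or 3 and lost without any other single library (adjusted p up to 0.133). It was at 0.020 with TPM and 0.25 with the length trend removed, not called in either. Leaving out 1 library ended the knockout call of Hnf4a (knockout replicate 2, 0.0581, or 3, 0.0505) and of Rxra (knockout replicate 2, 0.0650, or 3, 0.0556, or WT replicate 1, 0.0526). It likewise ended the betaine calls against WT of Ppara (betaine replicate 3, 0.0669, or WT replicate 1, 0.0574) and of Rora (betaine replicate 1, 0.0644, or 3, 0.0803, or WT replicate 1, 0.0623).

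As a description, the genes whose log2 values followed Apob most closely over the 9 libraries were March6 (Pearson r = 0.993), Depdc5 (0.992), Slc39a9 (0.988), Gak (0.987) and Zhx1 (0.986), with exon lengths of 6031 to 11774 bases. Those nearest to Apoa1 were Uchl5 (0.994), Rps10-ps1 (0.982), Apoc3 (0.982), Mthfsl (0.980) and Rpl21 (0.975). The 9 libraries share the group differences and the length trend, so these values are no test of a relation.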

How the data were processed

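The authors deposited 1 table with an FPKM value per gene and library for 9 mouse liver libraries and 54532 genes. DESeq2 1.16.1, featureCounts 1.5.0-p3, HISAT2 2.0.5 and genome build mm10 appear in the submitters' processing notes, without roles. Strand is not given in the sources used here, so reads of overlapping or antisense genes may be mixed. Exon lengths came from GENCODE M21. With them, 98.3% to 98.6% of low values (up to 20 reads) came within 0.05 of whole reads, and a count of 3 reads in 1 kb equals 0.162 to 0.222 FPKM, for counting error only.

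Testing took genes averaging 0.5 FPKM or more, on log2(FPKM + 0.5), a scale that understates the change of low genes, in one limma 3.58.1 model (R 4.3.3, eBayes with trend and robust) of the 3 groups. Tests were two-sided, with Benjamini-Hochberg adjustment over the 11852 genes and a threshold of 0.05. The model was also run on simulated counts, drawn with a fixed spread and without a trend with exon length. That run cannot show how such a trend or a library that stands apart affects the calls here. Figures were drawn with Python 3.11.15.

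The 10 genes and the lists were chosen with earlier results of these data known. From each list up to 4 called genes with the smallest p are named per comparison, or up to 2 with the smallest p where fewer than 2 were called; some genes this rule takes are not reported here. For likeness the 5 genes with the highest Pearson r were taken. Genes named beside the 2 loci were chosen by position. The text says where other genes were named after their values were seen. Alternatives were other pseudocounts, filters, scalings, variance models, a replicate block and leaving out each library. Replicate numbers were not treated as pairs.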

Additional observations from a re-analysis of the deposited data

How the results depend on the processing

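Apob in knockout against WT was called in every fit that left out 1 library and under every other setting tried. Genes called in knockout against WT went between 896 and 3231 when 1 library was left out (lowest without knockout replicate 2), and the called among the 10 genes between 1 and 6. With betaine against the knockout these ranges were 0 to 878 and 0 to 3, and with betaine against WT 351 to 1441 and 0 to 1. Without WT replicate 3, 273 genes were called with betaine against the knockout. Without a filter on low values 1865, 1 and 531 genes were called in the 3 comparisons in that order, and 2 of the 10 for knockout against WT. TPM gave 3, 2 and 1 of the 10, and 1754 genes for betaine against the knockout. Quantile normalization gave 3 of the 10 for knockout against WT and 1 for betaine against WT. With betaine against the knockout, a pseudocount of 0.1 gave 8 genes, one of 1 gave 10, own read totals gave 67 (80.6% higher), limma without trend and robust gave 0 and the fit of only those groups gave 35; that fit gave 353 for betaine against WT. Own read totals gave 69.6% higher for betaine against WT, where the deposited values gave 50.4%. Removing the length trend gave 2 and 1 of the 10 for knockout and betaine against WT. The same with WT replicate 3 left out, chosen after seeing the data, gave 1890 genes and 2 of the 10 for knockout against WT, 241 genes for betaine against the knockout, and 2 of the 10 for betaine against WT.

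With the replicate block 2210, 0 and 671 genes were called; correlations of same-numbered libraries were -0.227 to 0.098, so the numbers were not taken as pairs, and not every library correlated best with its own number. Among the 10 genes the block ended the call of Apoa1 (adjusted p = 0.0590). Over all named genes, settings other than leaving out 1 library kept 847 values on their side of the threshold, moved 89 below it and 22 past it, and turned the sign of 26.

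Signs turned as follows, and the cause was not tested. For knockout against WT, Apoa1 was at -0.092 after quantile normalization, and Apoe at -0.030 with TPM, -0.48 after quantile normalization and -0.0065 without the length trend and WT replicate 3. For betaine against the knockout, quantile normalization gave 0.025 for Apoa1, 0.050 for Apoe, 0.047 for Apoh and 0.0032 for Apoa4, and TPM gave 0.020 for Apoh and 0.35 for Apoa4. Apoa4 was also at 0.18 with own totals and 0.13 without the length trend, with and without WT replicate 3. For betaine against WT, TPM gave -0.017 for Apoa1 and -0.042 for Apoe, and quantile normalization -0.067 for Apoa1, -0.027 for Apoa2 and -0.43 for Apoe. Without the length trend Apoa1 was at -0.18, Apoc1 at -0.070 and Apoe at -0.15, and with WT replicate 3 also left out Apoa1 was at -0.14, Apoa2 at -0.021, Apoa4 at 0.023, Apoc1 at -0.27 and Apoe at -0.29. Leaving out 1 library turned the sign of values near 0. For knockout against WT, Apoa4 ranged from -0.32 to 0.16 and Apoa5 from -0.35 to 0.14. For betaine against the knockout, Apoa4 ranged from -0.46 to 0.27. For betaine against WT, Apoa1 ranged from -0.24 to 0.21, Apoa2 from -0.0057 to 0.47, Apoa4 from -0.53 to 0.19, Apoc1 from -0.15 to 0.35, Apoc3 from -0.095 to 0.45 and Apoe from -0.18 to 0.17. Each of the 10 genes rested on at least 432 reads in every library.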
